A study of Arabidopsis thaliana with 18 samples.

Results

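The change in transcript levels over the first 2 h of light was examined in 8 RNA-seq libraries of whole Arabidopsis thaliana seedlings that shared a high level of FSD1 (AT4G25100), a marker of copper shortage. Of the 18 libraries of the series, the 15 collected at ZT 2 fell apart in FSD1, and 5 of them were selected on an estimated FSD1 read count above 1000. These were DMSO replicate 1, DPI replicate 1, PI replicate 1, AEG replicate 1 and TYR replicate 3, and they were compared with the 3 untreated libraries of ZT 0, all of which were also above 1000. ZT, or zeitgeber time, is given in hours after the lights come on. The seedlings were of ecotype Col-0, 14 days old, and had grown on half-strength MS medium with days of 12 h and nights of 12 h. The untreated group was collected at ZT 0, and the ZT 2 seedlings had been moved at ZT 0, before lights on, to medium that held either 0.1% (v/v) DMSO alone, 10 µM of DPI, 25 µM of PI, 12.5 µM of AEG, or 2 µM of TYR. The names PI, AEG and TYR were taken for pentamidine isethionate, AEG3482 and Tyrphostin AG879, the chemicals of the treatment protocol whose letters they match.

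Each medium thus entered with 1 library, and 4 of the 5 ZT 2 libraries carried a chemical. Light, time, transfer to new medium and medium cannot be told apart in this comparison, and no effect of a chemical was tested. Of the 5 libraries, 4 are numbered 1 and 1 is numbered 3, whereas the 10 other ZT 2 libraries hold 1 with the number 1, 5 with the number 2 and 4 with the number 3. High FSD1 and the number 1 therefore cannot be told apart among most ZT 2 libraries, and the labels do not say whether a number marks a shared plate, day or extraction, nor whether replicates were separate cultures. P-values measure only the spread between these libraries. In whole seedlings, fewer cells of a type and less RNA per cell cannot be told apart.

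FSD1 encodes an iron superoxide dismutase of the chloroplast, an enzyme that removes superoxide. When copper is scarce, the transcription factor SPL7 turns on FSD1 and copper uptake genes through sites with the core GTAC, and a microRNA lowers the copper enzymes CSD1 and CSD2 and their chaperone CCS, so that copper is saved for photosynthesis. At dawn, light acts through phytochromes, cryptochromes and the clock, in which LHY and its relatives repress evening genes through the evening element, while growth, pigment and metabolic genes follow the start of photosynthesis. The table listed 11437 genes, and 11432 of them are protein-coding, which is 41.5% of the protein-coding genes in the RefSeq annotation, so many well-known dawn genes were not analysed here.

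Promoters of 4 genes are shown first, because they belong to the gene that chose the libraries and to clock output and flavonoid genes described below. Each is the 250 bases before the annotated start in RefSeq TAIR10.1, written 5′ to 3′ on the strand of the gene. FSD1 (chr4:12887012-12887261, minus strand) has the GTAC core in capitals. GRP7 (chr2:9266558-9266807, minus strand), which fell by ZT 2, has the evening element AAAATATCT or its reverse complement in capitals. F3H (chr3:19024942-19025191, plus strand) and CHIL (chr5:1563036-1563285, plus strand), which rose, have the G-box CACGTG in capitals.
FSD1: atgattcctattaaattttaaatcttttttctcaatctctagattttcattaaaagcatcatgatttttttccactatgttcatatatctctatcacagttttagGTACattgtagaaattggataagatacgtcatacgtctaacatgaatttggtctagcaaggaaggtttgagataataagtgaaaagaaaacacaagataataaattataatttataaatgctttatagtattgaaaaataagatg
GRP7: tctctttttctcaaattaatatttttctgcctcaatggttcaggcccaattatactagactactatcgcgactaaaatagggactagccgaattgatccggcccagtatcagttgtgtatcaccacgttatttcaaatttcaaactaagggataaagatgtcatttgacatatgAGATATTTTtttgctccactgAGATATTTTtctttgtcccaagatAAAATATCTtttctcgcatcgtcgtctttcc
F3H: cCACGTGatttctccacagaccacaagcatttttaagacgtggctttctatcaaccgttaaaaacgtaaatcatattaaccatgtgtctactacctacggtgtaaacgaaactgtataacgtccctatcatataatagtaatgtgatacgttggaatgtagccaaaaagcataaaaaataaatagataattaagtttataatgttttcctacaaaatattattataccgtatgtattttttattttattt
CHIL: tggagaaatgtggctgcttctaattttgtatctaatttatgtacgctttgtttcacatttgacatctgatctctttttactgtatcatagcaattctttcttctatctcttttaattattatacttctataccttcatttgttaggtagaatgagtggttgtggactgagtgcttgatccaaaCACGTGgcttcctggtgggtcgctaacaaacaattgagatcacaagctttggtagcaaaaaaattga

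Searched on both strands, the evening element AAAATATCT was present in 2.40% of the promoters of all 8724 genes tested, in 2.79% of those called higher at ZT 2 and in 3.30% of those called lower. The G-box CACGTG was present in 7.53% of all tested promoters, in 10.7% of those called higher and in 5.89% of those called lower. The core GTAC was common, at 34.5% of all tested promoters, 34.8% of those higher and 35.5% of those lower. The I-box GATAAG was present in 11.2%, 14.1% and 12.7% of promoters of genes called higher, called lower and tested, and the site II motif TGGGCC in 15.9%, 19.1% and 17.8%. Among the 279 genes higher and the 68 lower by 4-fold or more, the G-box was in 13.6% and 11.8%. The evening element was in 3.23% and 8.82% of these, the latter from 6 promoters. Shares for GTAC were 35.1% and 39.7%, for the I-box 14.7% and 16.2%, and for site II 6.09% and 17.65%. Among the genes named by the rule, the G-box was also in promoters of RVE1, PHS2 and SS4, which fell, and of HSFA2, COR15A and GLDP1, which rose, and the evening element in those of TOC1, PORB and PGM1, which fell, and of FAMT, which rose. No motif of the 5 contains another, and these shares are descriptions without a test.

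The copper genes are given as a description of how well the states match, with no test because FSD1 chose the libraries. FSD1 was at 1719, 1773 and 1744 CPM (read counts scaled to library size) in the 3 untreated libraries and at 1243, 1084, 1670.0, 1509.7 and 960.1 CPM in the ZT 2 libraries with DMSO, DPI, PI, AEG and TYR. All 5 lay below the untreated range, and the mean was 1.35 times lower than at ZT 0. Just inside the threshold was TYR replicate 3 with an FSD1 read count of 3041, and just outside was TYR replicate 1 with 15. The other 9 libraries outside had between 0 and 10 counts.

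CSD2, the copper and zinc superoxide dismutase of the chloroplast, was at 339, 321 and 283 CPM at ZT 0 and at 387, 290.0, 415, 398 and 726 CPM in the ZT 2 libraries in the same order of media. In the 10 libraries with low FSD1 it lay between 1700.2 and 2129 CPM. CSD1, the cytosolic enzyme, was at 246, 246 and 189.7 CPM at ZT 0, at 217, 144, 300.2, 298 and 389.6 CPM in the 5 libraries and between 750.1 and 906 CPM in the 10 others. The library with TYR was the highest of the 5 for both enzymes, that with DPI the lowest, and none reached the range of the 10 others. CCS, the chaperone that gives copper to these enzymes, was at 149.6, 163 and 123 CPM at ZT 0 and at 90.2, 67.0, 88.1, 80.2 and 169 CPM, again highest with TYR and below the untreated range in the other 4, against 336 and 425 CPM as the bounds of the 10 others.

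CCH, a copper chaperone, was at 371, 332 and 343 CPM at ZT 0 and at 199.9, 88.7, 325, 187 and 219 CPM in the 5 libraries, against bounds of 53.9 and 78.3 CPM in the 10 others. The library with DPI came close to that low range. YSL2, a transporter of metal chelates, was at 63.9, 69.8 and 68.5 CPM at ZT 0 and at 76.1, 162, 125, 152 and 93.8 CPM in the 5 libraries, all above ZT 0, and between 1.91 and 8.30 CPM in the 10 others. None of the 5 libraries reached the low-FSD1 range in any of these 6 genes, but their match to ZT 0 was not complete. The library with TYR came nearest to the low-FSD1 range in 4 of the 6, that with DPI in CCH and that with DMSO in YSL2.

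**Figure D1:**
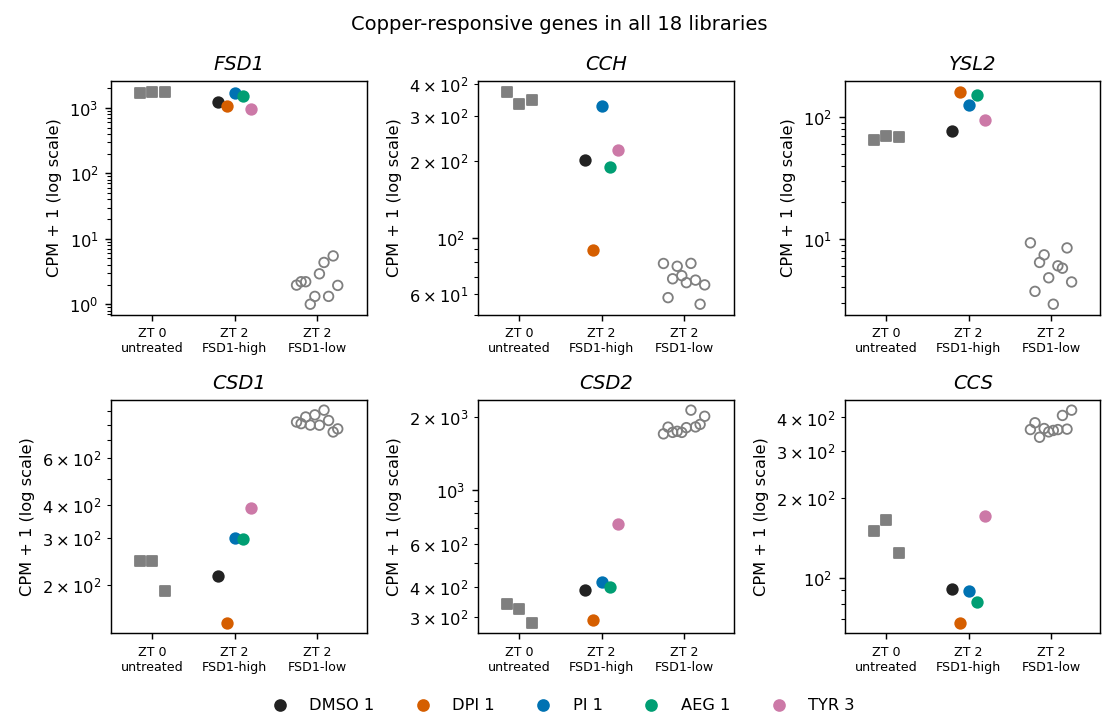
Levels of 6 copper-responsive genes in CPM plus 1 on a log axis, 1 point per library, with untreated ZT 0 libraries as squares, the 5 ZT 2 libraries with high FSD1 in colour by medium and the 10 with low FSD1 as open circles. The coloured points of FSD1 lie between 960.1 and 1670.0 CPM, and the open circles of CSD2 lie between 1700.2 and 2129 CPM, above all coloured points.

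The other 8 listed genes of copper handling overlapped between the 5 and the 10 ZT 2 libraries. COPT1 and COPT6, copper uptake transporters, had means of 197 ± 24.1 and 159 ± 12.2 CPM (SD, n = 3) at ZT 0 and of 101 ± 12.7 and 81.5 ± 19.1 CPM (SD, n = 5) in the FSD1-high libraries. PAA2, the copper pump of the thylakoid, had means of 417 ± 31.8 CPM (SD, n = 3) and 227 ± 47.0 CPM (SD, n = 5). In none of these did the 5 libraries reach the ZT 0 range, and the 10 low-FSD1 libraries lay between 73.4 and 105, 61.9 and 103 and 176 and 274 CPM. SPL7, the regulator itself, had means of 73.8 ± 8.02 CPM (SD, n = 3) and 67.3 ± 7.21 CPM (SD, n = 5), and the ranges overlapped. HMA5, PETE1 and ARPN also overlapped between ZT 0 and ZT 2, and FRO4 stayed at or under 2.95 CPM in all 8 libraries.

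The 8 libraries held between 3196343 and 3238194 counts, and between 8465 and 8557 genes reached 10 counts. Libraries of one group differed by 3.08 times the Poisson variance of counts or more, which is beyond counting error. Each was taken as a sample of its own, but this spread cannot show that they were separate cultures. As a check of the tissue, GAPA1 and GLDP1, the 2 of 7 listed leaf markers in the table, summed to between 11773 and 13401 CPM at ZT 0 and to between 10485 and 14553 CPM at ZT 2. The 7 of 11 root markers in the table summed to between 64.0 and 103 CPM and between 27.8 and 131 CPM, mostly from IRT1 and PHT1;1. The root hair genes RHD6, EXPA7, EXPA18 and PRP3 were at or under 3.37 CPM in all 8 libraries, so the defining root hair markers were near 0 in libraries labelled as seedlings. Of the 3 of 8 flower and seed markers in the table, CRA1 was at 0 in all 8 and the sum did not pass 2.29 CPM.

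Across the table, edgeR's quasi-likelihood test called 3713 of 8724 genes between ZT 0 and the matched ZT 2 libraries at a Benjamini-Hochberg adjusted p under 0.05, which is 42.6%. Of these, 1896 were higher at ZT 2 (21.7% of the genes tested) and 1817 lower (20.8%). Changes of 2-fold or more were seen in 1427 called genes (16.4%), 858 higher and 569 lower, and changes of 4-fold or more in 279 higher and 68 lower. For 43.3% of the genes tested, the ranges of both groups stayed apart. The median log2 fold change of all genes tested was -0.01, and a list is read against these shares below. A principal component that held 68.3% of the variance set the untreated libraries (-53.0 to -47.6) apart from the ZT 2 libraries (16.8 to 39.5), with the library with DMSO nearest to ZT 0.

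The circadian clock genes moved in both directions. All 5 listed morning clock genes in the table were called, 3 higher and 2 lower, beside 42.6% called of all genes tested. Their median log2 fold change was 0.48. LHY (AT1G01060), a MYB factor of the morning loop, was at 2454, 2648 and 2539 CPM at ZT 0 and at 971, 1245, 745, 791 and 747 CPM with DMSO, DPI, PI, AEG and TYR, a log2 fold change of -1.50 (edgeR, SE 0.16, adjusted p = 1.20e-05). The groups stood apart, and DPI was highest of the 5. RVE1 (AT5G17300), a related factor that links the clock to auxin, fell from 627, 742 and 667 to 146, 165, 119, 118 and 126 CPM, with a log2 fold change of -2.33 (edgeR, SE 0.13, adjusted p = 9.21e-08).

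LNK genes encode partners of these MYB factors in switching genes on in the morning. LNK1 (AT5G64170) rose from 5.95, 10.1 and 15.5 CPM in the untreated libraries to 419.9, 549, 439, 478 and 386 CPM, a log2 fold change of 5.42 (edgeR, SE 0.25, adjusted p = 3.29e-08). All 5 ZT 2 values were far above the untreated ones. LNK3 (AT3G12320) was at 60.4, 78.4 and 67.9 CPM at ZT 0 and 194, 165, 196, 144 and 152 CPM at ZT 2, and rose by 1.3 (edgeR, SE 0.14, adjusted p = 1.54e-05) on the log2 scale. LNK2 (AT3G54500) rose less, from 1168, 1240.2 and 1172 to 1956, 1989.7, 1382, 1611 and 1402 CPM, with a log2 fold change of 0.48 (edgeR, SE 0.14, adjusted p = 0.0147).

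Of 9 listed evening clock genes in the table, 6 passed the filter on low counts, 3 fell, 1 rose and 2 were not called. Over all genes tested, 42.6% were called. JMJD5 (AT3G20810), a histone demethylase that works with the clock, was at 60.1, 71.0 and 53.0 CPM at ZT 0 and at 3.45, 7.95, 2.29, 4.66 and 3.79 CPM at ZT 2, a log2 fold change of -3.77 (edgeR, SE 0.25, adjusted p = 3.06e-07). TOC1 (AT5G61380), a repressor of the morning genes, fell from 59.8, 65.5 and 65.2 to 27.3, 24.2, 21.3, 21.5 and 27.2 CPM, with a log2 fold change of -1.39 (edgeR, SE 0.13, adjusted p = 4.25e-06). LKP2, a blue light receptor of a ubiquitin ligase, fell by 0.79 on the log2 scale. Each of these fell in all 5 libraries, and their groups did not overlap.

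LUX (AT3G46640), part of the evening complex, went the other way, from 35.1, 45.9 and 40.5 to 50.8, 97.6, 78.6, 146 and 85.9 CPM, a log2 fold change of 1.18 (edgeR, SE 0.27, adjusted p = 0.00346), and DMSO was the lowest of the 5 ZT 2 values and AEG the highest. ZTL, another ubiquitin ligase receptor, and FKF1 had log2 fold changes of -0.18 and -0.59 and were not called. PRR5, PRR3 and ELF4 did not pass the filter, and at ZT 2 they reached at most 1.96, 2.21 and 0.622 CPM.

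Among clock outputs all 4 listed genes in the table were called, 2 higher and 2 lower, beside 42.6% called of all genes tested. Without untreated replicate 1, 2 of these genes were called. COR27 had under 10 reads in all 5 ZT 2 libraries and passed the filter through its ZT 0 libraries. Passing in this way favours a call without fixing it, so the part of COR27 in the count is a description only. COR27 (AT5G42900), a cold-regulated gene that feeds back on the clock, had the largest decrease of all genes that met the naming rule. It was at 38.2, 42.6 and 30.1 CPM at ZT 0 and at 0.313, 0, 0.655, 0 and 0.316 CPM at ZT 2, that is 0 to 2 reads per library, with a log2 fold change of -6.99 (edgeR, SE 0.39, adjusted p = 9.21e-08). This fitted size rests on few ZT 2 reads and ran from -7.56 to -6.08 over the alternatives. GRP7 (AT2G21660), an RNA-binding protein that represses its own transcript, fell from 237, 239 and 210.0 to 53.6, 17.1, 52.4, 54.7 and 66.0 CPM, with a log2 fold change of -2.23 (edgeR, SE 0.27, adjusted p = 3.49e-05). DPI was far below the other 4. The GRP7 promoter above holds 3 evening elements, which begin 76, 55 and 31 bases before the start. Its relative GRP8 was at 52.6, 57.2 and 61.7 CPM at ZT 0 and 109, 51.7, 156, 99.8 and 131 CPM at ZT 2, a log2 fold change of 0.93 (edgeR, SE 0.27, adjusted p = 0.013), with the value for DPI just below the untreated range and the other 4 above it.

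**Figure D2:**
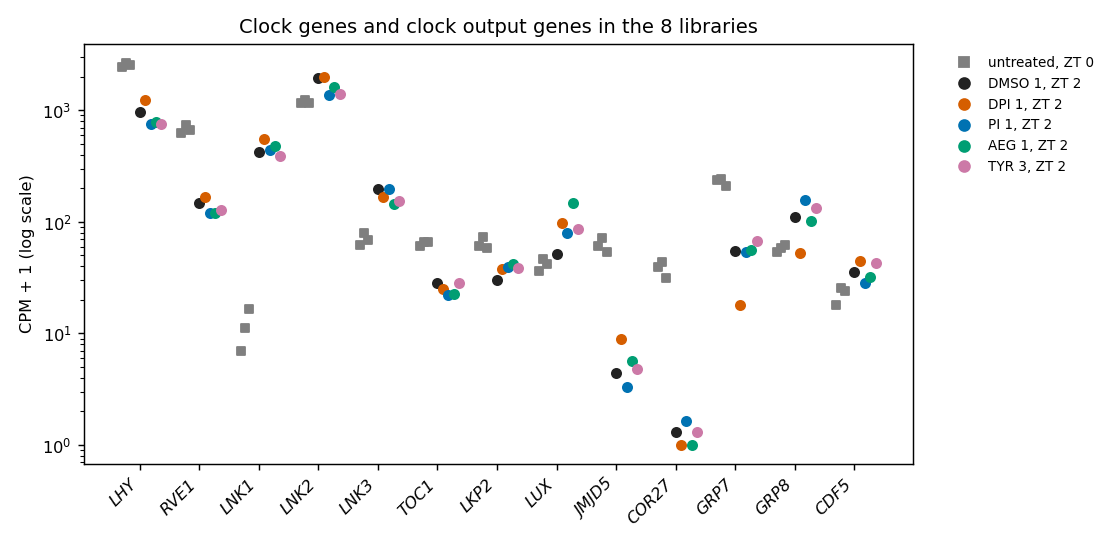
Levels of 13 clock and clock output genes in CPM plus 1 on a log axis, with 3 untreated ZT 0 libraries as squares and the 5 FSD1-high ZT 2 libraries as points coloured by medium. LNK1 rises to between 386 and 549 CPM and COR27 falls to at most 0.655 CPM, and for GRP7 the point of DPI lies below the other 4.

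Light signalling genes moved in both directions: 9 of 21 tested members rose, 6 fell and 6 were not called, with a median log2 fold change of 0.16. Over all genes tested, 42.6% were called. PIF4 and PIL1 had under 10 reads in at least 1 untreated library and passed the filter through their ZT 2 libraries. Their part in the count is a description only, and 13 members were called with at least 10 counts required in every library. Phytochrome-interacting factors are transcription factors that promote growth and are removed by active phytochrome. PIF4 (AT2G43010) was at 10.3, 7.65 and 2.68 CPM at ZT 0 and at 149, 208, 165, 162 and 164 CPM at ZT 2, a log2 fold change of 4.62 (edgeR, SE 0.28, adjusted p = 1.43e-07). Every ZT 2 value was far above the untreated ones, with DPI highest. PIF5 rose by 1.15 on the log2 scale, whereas PIF1 and PIF3 had log2 fold changes of 0.10 and 0.16 and were not called.

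PIL1 (AT2G46970), a shade-response gene of the same family, had 0, 1 and 0 reads at ZT 0 and was at 7.52, 5.20, 7.86, 5.91 and 6.0 CPM at ZT 2, a ratio of 63.6 (95% exact counting interval 11.2 to 2536) (edgeR, adjusted p = 2.27e-05). ELIP2, a chlorophyll-binding protein that protects against excess light, rose from 12.2, 20.5 and 13.1 to 144, 116, 217, 149 and 221 CPM, by 3.47 (edgeR, SE 0.27, adjusted p = 9.11e-07) on the log2 scale. The B-box regulators BBX31, BBX24 and BBX22 rose by 2.45, 1.47 and 1.29 on the log2 scale, HFR1, which restrains shade responses, by 1.09, and SPA2, a part of the ubiquitin ligase that removes light regulators in the dark, by 0.49. The 6 members that fell were the far-red receptor PHYA with -1.25, BBX25 with -0.93, BBX21 with -0.60, COL1 with -0.55, the ultraviolet receptor UVR8 with -0.50 and FHY3, a regulator of PHYA signalling, with -0.50.

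Of 12 listed genes of flavonoid synthesis 6 were in the table and tested, 5 of them rose and 1 was not called, with a median log2 fold change of 1.85. Over all genes tested, 42.6% were called. These enzymes make pigments that screen ultraviolet light. MYB12 passed the filter through its ZT 2 libraries, so its part in the count is a description only. With at least 10 counts required in every library, 4 members were called. F3H (AT3G51240), flavanone 3-hydroxylase, was at 47.6, 35.5 and 44.1 CPM at ZT 0 and at 307, 393, 462, 417 and 392 CPM at ZT 2, a log2 fold change of 3.22 (edgeR, SE 0.17, adjusted p = 5.83e-08). CHIL (AT5G05270), a non-catalytic partner of the pathway, rose from 42.9, 38 and 52.1 to 247, 315, 324, 234 and 289 CPM, with a log2 fold change of 2.67 (edgeR, SE 0.16, adjusted p = 1.60e-07). Both promoters shown above hold a G-box, and the ZT 2 values of the 5 media lay within a factor of 2 of each other. CHS, chalcone synthase, rose by 1.86, UGT78D1, a flavonol glycosyltransferase, by 1.72 and the regulator MYB12 by 1.85 on the log2 scale. MYB111, a relative of MYB12, had -0.36 and was not called.

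**Figure D3:**
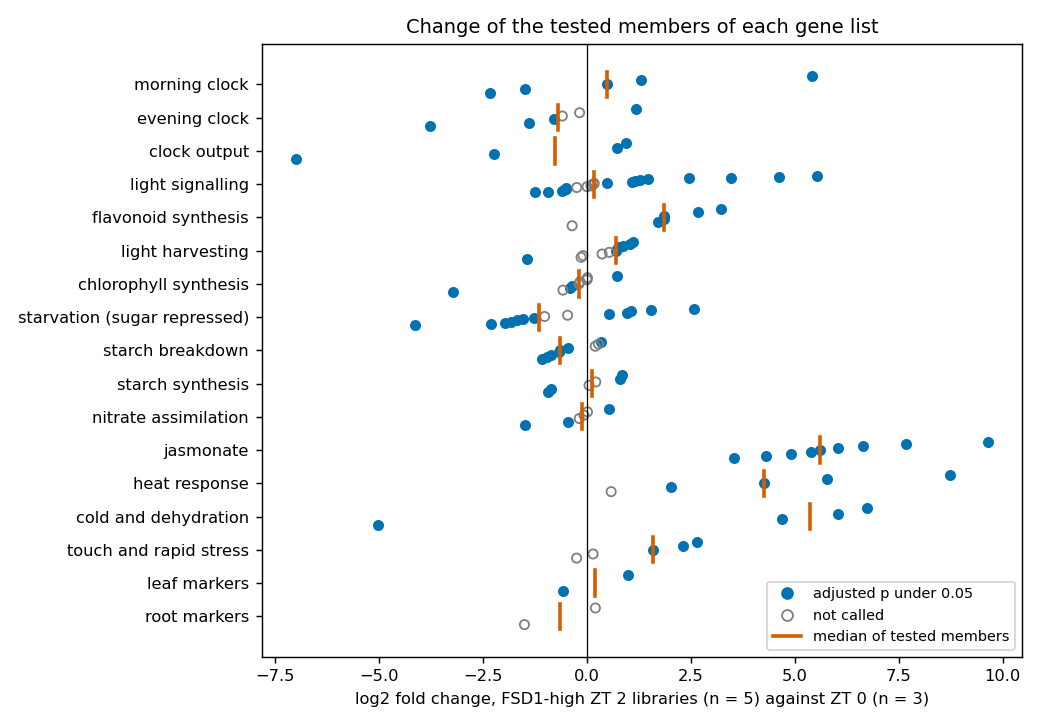
Log2 fold change of each tested member of the gene lists between the FSD1-high ZT 2 libraries and ZT 0, with filled points for genes called at an adjusted p under 0.05, open points for the others and bars for the median of the tested members. All 9 jasmonate members lie above 0, and 5 of 6 flavonoid members are filled and above 0. Positions of genes with 0 to 3 reads at ZT 0, such as HSFA2 and TAT3, depend on the prior count of the fit and are no measure of size.

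Of 11 tested genes for antenna proteins and PSBS, which hold the light-harvesting pigments or quench excess light, 6 rose, 1 fell and 4 were not called (median log2 fold change 0.71). Over all genes tested, 42.6% were called. LHCA1 (AT3G54890), an antenna protein of photosystem I, rose from 4435, 3518 and 3867 to 9779.5, 6131, 9709, 7606 and 9140.3 CPM, with a log2 fold change of 1.1 (edgeR, SE 0.16, adjusted p = 0.000148). LHCA4, its partner, rose by 1.04 on the log2 scale. LHCB1.4 (AT2G34430), an antenna protein of photosystem II, fell from 6349.9, 4503 and 5131 to 2520.4, 1007, 2413, 1514 and 2362 CPM, a log2 fold change of -1.44 (edgeR, SE 0.25, adjusted p = 0.000485). Its counts and those of LHCB1.5 and LHCB2.1 were partly not whole, so reads may be shared with near-identical copies, and the direction for these members is uncertain. The library with DPI was the lowest of the 5 for all 11 of these genes and that with PI the highest for 9, and the part of medium in this order was not tested.

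Levels per length, as the authors' FPKM, put LHCB1.5 first among the 11 tested genes of this list, which names 19. It was at 4487 ± 404 (SD, n = 3) at ZT 0 and 7230.3 ± 1890.2 (SD, n = 5) at ZT 2. Its counts were partly not whole, so this rank may depend on how reads were split, and listed genes absent from the table were not ranked. LHCA4 followed at ZT 2 with 4373 ± 639.9 FPKM, then LHCA1 with 4017 ± 687 FPKM, and these neighbours did not differ beyond their spread. LHCB4.3 was the lowest at both times, with 9.15 ± 2.65 and 12.9 ± 2.46 FPKM.

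Chlorophyll synthesis showed 1 member higher, 3 lower and 5 not called of 9 tested, a share near the 42.6% called of all genes tested. Only 2 were called when untreated replicate 2 or untreated replicate 3 was left out. PORB (AT4G27440), which reduces protochlorophyllide in the light, fell from 1039, 879 and 1035 to 93.1, 94.5, 101, 108 and 128 CPM, with a log2 fold change of -3.23 (edgeR, SE 0.13, adjusted p = 8.83e-09). All 5 ZT 2 values were far below the untreated range and close to each other. GUN4 (AT3G59400), which assists magnesium chelatase, rose from 621, 574 and 586 to 911, 1076, 1108, 955 and 891 CPM, by 0.73 (edgeR, SE 0.11, adjusted p = 0.000202) on the log2 scale. CHLI2 and CHLG fell by 0.40 and 0.35 on the log2 scale.

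**Figure D4:**
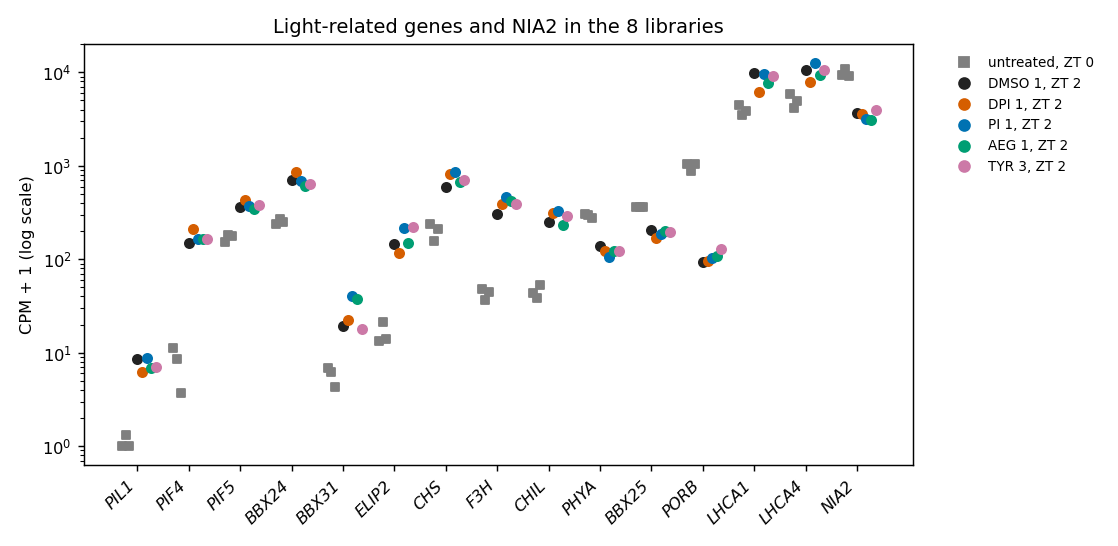
Levels of 14 light-related genes and NIA2 in CPM plus 1 on a log axis, with untreated ZT 0 libraries as squares and the FSD1-high ZT 2 libraries as points coloured by medium. PIF4 and F3H lie above all untreated values in each of the 5 libraries, and PORB and NIA2 lie below them.

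Sugar starvation genes are switched on when carbohydrate runs out, as at the end of a night. The list for them was written from general knowledge, and whether starvation switches on each member was not tested. Of 14 tested members of that list 7 fell, 5 rose and 2 were not called, with a median log2 fold change of -1.15. Over all genes tested, 42.6% were called. DYL1 (AT1G28330), a dormancy-associated gene, was at 162, 168 and 150.1 CPM at ZT 0 and at 11.9, 3.98, 9.49, 5.29 and 15.2 CPM at ZT 2, a log2 fold change of -4.13 (edgeR, SE 0.26, adjusted p = 2.29e-07). DPI and AEG were lowest and TYR highest, and all 5 were far under the untreated values. DIN4 and DIN3, parts of the complex that breaks down branched-chain keto acids, fell by 2.3 and 1.28 on the log2 scale. The sugar importer STP1 fell by 1.98, the regulator BZIP63 by 1.69 and TPS9, a trehalose phosphate synthase homologue, by 1.55. The galactosidase BGAL4 had a log2 fold change of -1.83.

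Members of the same list that rose included DIN9 (AT1G67070), a mannose phosphate isomerase, from 5.32, 10.7 and 7.74 to 27.9, 61.2, 49.8, 59.7 and 38.5 CPM, with a log2 fold change of 2.57 (edgeR, SE 0.30, adjusted p = 2.67e-05). The bZIP factors BZIP11, BZIP2 and BZIP53 rose by 1.54, 1.06 and 0.52 on the log2 scale, and KFB50, an F-box protein of phenylpropanoid control, by 0.97. BCAT2, a branched-chain aminotransferase, and MIOX2, an inositol oxygenase, had -1.02 and -0.47 and were not called. For MIOX2 the ZT 2 values were 64.2, 15.3, 23.2, 14.9 and 48.3 CPM, so DMSO lay above the untreated range, TYR within it and the other 3 below it.

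Starch is broken down at night and made by day. Of 9 tested genes of starch breakdown, 6 fell, 1 rose and 2 were not called, beside 42.6% called of all genes tested. LDA (AT5G04360), a debranching enzyme, fell from 77.6, 84.5 and 70.6 to 37.3, 41.9, 29.1, 30.2 and 43.9 CPM, with a log2 fold change of -1.09 (edgeR, SE 0.15, adjusted p = 9.30e-05). PHS2 (AT3G46970), the cytosolic glucan phosphorylase, fell from 74.8, 79.3 and 70.9 to 32.9, 34.6, 41.6, 35.4 and 48.6 CPM, with a log2 fold change of -0.96 (edgeR, SE 0.14, adjusted p = 0.000139). Smaller decreases were those of ISA3 with -0.88, PGLCT, the chloroplast glucose exporter, with -0.68, SEX4, a glucan phosphatase, with -0.66 and BAM3, a beta-amylase, with -0.46, while BAM2 rose by 0.33.

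Starch synthesis split evenly, with 2 of 6 tested members higher, 2 lower and 2 not called, beside 42.6% called of all genes tested. PGM1 (AT5G51820), the plastid phosphoglucomutase, fell from 309.6, 309 and 291 to 177, 165, 153, 131 and 168 CPM, with a log2 fold change of -0.93 (edgeR, SE 0.11, adjusted p = 3.43e-05). SS4 (AT4G18240), which initiates granules, fell from 111, 116 and 119 to 70.5, 75.0, 52.7, 61.6 and 57.1 CPM, with a log2 fold change of -0.86 (edgeR, SE 0.13, adjusted p = 0.000141). GBSS1, the amylose synthase, and SS2 rose by 0.85 and 0.80 on the log2 scale.

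In nitrate assimilation 1 of 6 tested genes rose, 2 fell and 3 were not called, a share near the 42.6% called of all genes tested. NIA2 (AT1G37130), the main nitrate reductase, fell from 9450.1, 10935 and 9219 to 3666, 3590.0, 3157, 3096 and 3935 CPM, with a log2 fold change of -1.50 (edgeR, SE 0.11, adjusted p = 7.58e-07). NRT1.1 (AT1G12110), a nitrate transporter and sensor, rose from 174, 204 and 170.4 to 229.7, 270.4, 242, 264 and 309 CPM, with a log2 fold change of 0.53 (edgeR, SE 0.12, adjusted p = 0.00436). GLN2, the glutamine synthetase of the chloroplast, fell by 0.46 on the log2 scale. NIA1, the second nitrate reductase, had -0.07, with overlapping groups, and was not called.

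Of 16 listed jasmonate genes 9 were in the table and tested, and these 9 were called higher, beside 42.6% called of all genes tested. VSP1, VSP2, TAT3 and MYC2 had under 10 reads in at least 1 untreated library and passed the filter through their ZT 2 libraries. This favours a call, so their part in the count is a description only. The other 5, namely LOX2, AOC2, OPR3, JAZ1 and CORI3, were called also with at least 10 counts required in every library. Jasmonate is a hormone of wounding and defence. LOX2 (AT3G45140), the lipoxygenase that starts its synthesis in the chloroplast, was at 133, 86.3 and 107 CPM at ZT 0 and at 1059, 8048, 3391, 7254 and 3159.7 CPM with DMSO, DPI, PI, AEG and TYR, a log2 fold change of 5.40 (edgeR, SE 0.61, adjusted p = 1.94e-05). The groups stood far apart, but the ZT 2 values ran over a range of more than 7 times, with DMSO lowest. The later enzymes AOC2 and OPR3 rose by 5.61 and 3.55 on the log2 scale.

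MYC2 (AT1G32640), the transcription factor that drives the response, was at 0, 0 and 3.57 CPM at ZT 0, all from 1 library, and at 89.9, 408, 178, 364 and 237 CPM at ZT 2, a log2 fold change of 7.67 (edgeR, SE 0.77, adjusted p = 7.42e-06), with part of its counts not whole. The size of this change rests on untreated replicate 3, which held all 12 reads at ZT 0: without it the fitted value was 12.67, against a group at 0 reads and so no measure of size, and the adjusted p ranged from 4.37e-09 to 0.000519 over the alternatives (edgeR and DESeq2). JAZ1, a repressor of MYC2 that is removed in the presence of the hormone, rose by 4.32 on the log2 scale. TAT3 (AT2G24850), a tyrosine aminotransferase induced by jasmonate, had 1 read over the 3 untreated libraries and was at 5.95, 175, 95.6, 187 and 98.8 CPM at ZT 2, a ratio of 1111 (95% exact counting interval 199 to 43906) (edgeR, adjusted p = 0.000206). The storage proteins VSP1 and VSP2 rose by 4.91 and 6.65 and CORI3, a cystine lyase, by 6.04 on the log2 scale. The library with DMSO was the lowest of the 5 for all 9 genes, and that with DPI or AEG the highest, at 6 and 3 genes. The part of the media in this order was not tested.

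Per length, as the authors' FPKM, LOX2 was the most abundant of the 9 jasmonate genes at ZT 2, with 793 ± 526 FPKM (SD, n = 5) after 19.1 ± 3.82 FPKM (SD, n = 3) at ZT 0. AOC2 with 279.6 ± 166, CORI3 with 178 ± 127, OPR3 with 128 ± 64.6 and VSP2 with 113 ± 95.9 FPKM came next. MYC2, JAZ1, TAT3 and VSP1 followed with 40.2 ± 21.4, 36.6 ± 18.7, 24.7 ± 16.4 and 19.8 ± 13.1 FPKM. No neighbours in this order differed by more than the sum of their SDs.

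**Figure D5:**
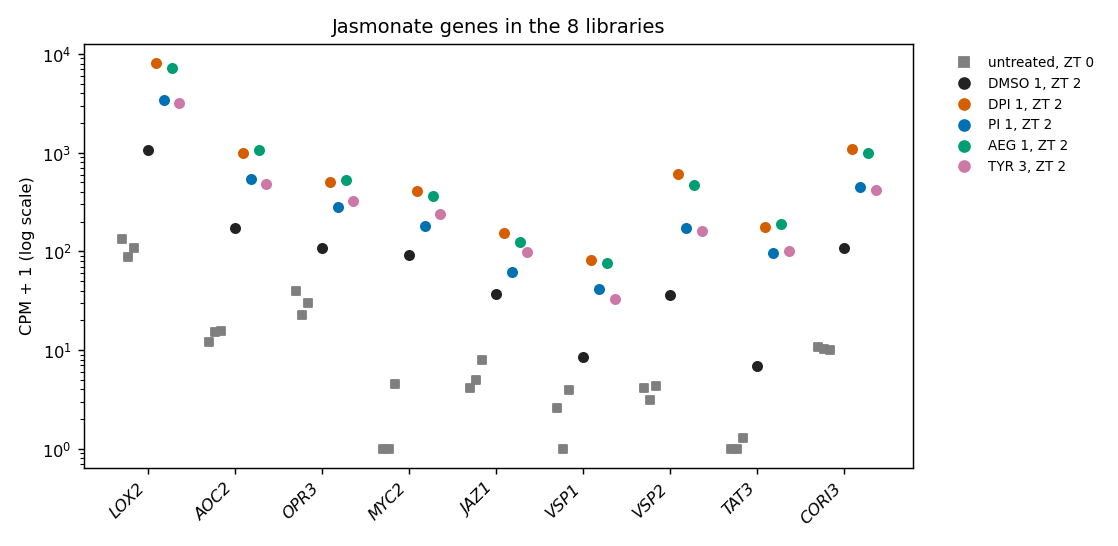
Levels of the 9 tested jasmonate genes in CPM plus 1 on a log axis, with untreated ZT 0 libraries as squares and the FSD1-high ZT 2 libraries as points coloured by medium. Each gene lies above its untreated values in all 5 libraries, and the black point of DMSO is the lowest of the 5 in every gene.

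Of 19 listed heat response genes 8 were in the table and 5 were tested, of which 4 were called higher. HSP18.2 was at 0.58 on the log2 scale and not called. The share called over all genes tested was 42.6%. HSFA2, HSP90.1 and HSP18.2 passed the filter through their ZT 2 libraries, and with at least 10 counts required in every library the called members were 2, HSP70 and MBF1C. HSFA2 (AT2G26150), a heat stress transcription factor, had 0 reads in every untreated library and was at 11.0, 15.6, 13.7, 35.1 and 6.63 CPM at ZT 2, so that its mean was at least 17.9-fold higher than the floor of 3 counts per untreated library, a mean of 0.917 CPM (edgeR, adjusted p = 0.000197). AEG was more than 2 times the next value. HSP70 (AT3G12580), a chaperone, was at 5.95, 6.43 and 6.85 CPM at ZT 0 and at 217, 396, 372, 484 and 296 CPM at ZT 2, a log2 fold change of 5.77 (edgeR, SE 0.30, adjusted p = 5.83e-08). HSP90.1, a second chaperone, and MBF1C, a coactivator of heat tolerance, rose by 4.25 and 2.03 on the log2 scale. HSP17.6II did not pass the filter, with 0 reads at ZT 0 and 0.313, 0.612, 3.27, 11.2 and 1.26 CPM at ZT 2, and HSP21 had 1 read in the AEG library alone.

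Of 4 tested genes of cold and dehydration, 3 rose and 1 fell, beside 42.6% called of all genes tested. COR15A (AT2G42540), a chloroplast protein that guards membranes in the cold, was at 20.7, 9.18 and 11.3 CPM at ZT 0 and at 422, 1514, 1504, 3203 and 621 CPM at ZT 2, a log2 fold change of 6.73 (edgeR, SE 0.72, adjusted p = 1.32e-05). RD29A (AT5G52310), a gene induced by dehydration and cold, rose from 13.5, 20.8 and 27.4 to 682, 1558, 1398, 2058 and 1046 CPM, with a log2 fold change of 6.03 (edgeR, SE 0.40, adjusted p = 3.06e-07). For both genes DMSO was lowest and AEG highest, and every ZT 2 value was above the untreated ones. COR15B, the neighbour of COR15A, rose by 4.68 on the log2 scale, and part of its counts were not whole. CBF1, a factor that switches such genes on in the cold, had 0 reads in all 8 libraries.

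SAG21, a protective mitochondrial protein counted in the same list, had the second largest decrease under the naming rule. SAG21 (AT4G02380) was at 3086, 5806 and 4355 CPM at ZT 0 and at 122, 124, 124, 118 and 189.7 CPM at ZT 2, a log2 fold change of -5.03 (edgeR, SE 0.21, adjusted p = 1.98e-08). The untreated values differed by almost 2 times, while 4 of the 5 ZT 2 values lay within 118 to 124 CPM.

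Touch and rapid stress genes gave 3 higher, none lower and 2 not called of 5 tested, beside 42.6% called of all genes tested. TCH4 (AT5G57560), a cell wall enzyme induced by touch, rose from 14.1, 13.5 and 22 to 152, 91.5, 54.7, 59.1 and 167 CPM, with a log2 fold change of 2.66 (edgeR, SE 0.40, adjusted p = 0.000183). WRKY40 (AT1G80840), a stress-induced repressor, rose from 3.13, 3.37 and 6.85 to 18.5, 46.2, 9.49, 19.9 and 17.7 CPM, with a log2 fold change of 2.32 (edgeR, SE 0.49, adjusted p = 0.00226). TCH2, a calmodulin-like protein, rose by 1.58 on the log2 scale. TCH3, another calmodulin-like protein, and ERF6 had 0.15 and -0.25 and were not called.

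Genes outside the lists completed the largest changes under the naming rule. FAMT (AT3G44860), a methyltransferase that acts on farnesoic acid, had 3 reads over the 3 untreated libraries and was at 10.3, 300.1, 127, 300.3 and 278 CPM at ZT 2, a ratio of 669 (95% exact counting interval 229 to 3246) (edgeR, adjusted p = 0.000157). RNS1 (AT2G02990), a secreted ribonuclease induced by wounding and phosphate starvation, had 1 read at ZT 0 and was at 18.8, 23.2, 53.4, 99.8 and 18.3 CPM at ZT 2, a ratio of 419 (95% exact counting interval 74.9 to 16562) (edgeR, adjusted p = 0.000127). JAL23 (AT2G39330), a jacalin-related lectin, had 2 reads at ZT 0 and was at 10.0, 62.7, 13.4, 34.8 and 31.9 CPM at ZT 2, a ratio of 152 (95% exact counting interval 41.7 to 1255) (edgeR, adjusted p = 1.00e-04). DMSO was the lowest of the 5 ZT 2 values for FAMT and JAL23, and TYR for RNS1, where DMSO was next. FAMT, RNS1 and JAL23 had under 10 reads in every untreated library and passed the filter through their ZT 2 libraries. Their adjusted p-values are therefore a description only.

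On the falling side, BT2 (AT3G48360), a BTB and TAZ domain protein regulated by sugar and nitrogen, fell from 965, 1039 and 913 to 65.8, 56.9, 43.2, 48.8 and 113 CPM, with a log2 fold change of -3.89 (edgeR, SE 0.24, adjusted p = 2.29e-07). AT3G61160 was at 44.8, 50.2 and 54.8 CPM at ZT 0 and at 5.64, 3.37, 2.62, 1.24 and 2.53 CPM at ZT 2, a log2 fold change of -4.0 (edgeR, SE 0.27, adjusted p = 3.15e-07). Both were lower in all 5 libraries than in any untreated one, and for each the ZT 2 libraries differed among themselves by more than 2-fold. AT3G61160 had under 10 reads with PI, AEG and TYR and passed the filter through its ZT 0 libraries, so its adjusted p is a description only. The leaf markers moved in opposite directions: GLDP1, a glycine decarboxylase of photorespiration, rose by 0.98 (edgeR, SE 0.15, adjusted p = 0.000192) on the log2 scale, and GAPA1, a Calvin cycle dehydrogenase, had a log2 fold change of -0.58 (edgeR, SE 0.13, adjusted p = 0.00343).

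Values of 6 of these genes in the 10 ZT 2 libraries with low FSD1 are given as a description because the threshold separates them and because both kinds share the untreated libraries. LNK1 had a median of 466 CPM there (range 394 to 550.2), PIF4 169 CPM (151 to 200.2) and F3H 378 CPM (300.1 to 558). PORB had a median of 97.5 CPM (69.1 to 124), NIA2 3804 CPM (2562 to 4245) and COR27 0.469 CPM (0 to 1.28). Each of these 6 ranges overlapped that of the 5 libraries. For FSD1 the 5 and the 10 libraries stayed apart because the threshold was set on it. YSL2, CSD1, CSD2, CCS and CCH, which may follow FSD1, did not overlap either. These 6 genes without copper roles were chosen from the named ones, so they cannot show how other genes relate to the FSD1 state, which was not tested.

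Among themselves the 5 ZT 2 libraries spread more than the 3 untreated ones. Over the 7588 genes whose mean log2 CPM was 3 or higher, the median range was 0.57 log2 units among the 5 and 0.27 among the 3, numbers of libraries that differ, and 1188 genes (15.7%) had a range over 1 among the 5. The library with DPI had 283 genes more than 1 log2 unit from the median of the other 4, of which 231 were lower. DMSO had 140 such genes, AEG 105, TYR 77 and PI 74. The second principal component, with 10.2% of the variance, set DPI at -35.1 against PI at 22.1. Media and single libraries cannot be told apart here.

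The 5 genes of widest range among the 5 libraries were AT1G55673, AT2G05230, AT1G24881, IRT1 and TAT3. For AT1G55673 the values were 483, 539.7 and 487 CPM at ZT 0 and 565, 2.45, 5.89, 12.7 and 446 CPM at ZT 2, so DMSO and TYR stayed near ZT 0 while the other 3 were far lower. AT2G05230 was at 0, 58.4, 12.8, 0 and 25.6 CPM and AT1G24881 at 25.7, 27.2, 36.7, 16.2 and 0 CPM, with 0 reads in some libraries. Counts of these 3 were partly not whole, so their values may depend on how reads were split with other genes. IRT1, the iron uptake transporter of the root, was at 57.3, 15.6 and 1.19 CPM at ZT 0 and at 3.13, 0, 5.24, 1.24 and 33.8 CPM at ZT 2, a log2 fold change of -1.50 (edgeR, SE 1.01, adjusted p = 0.255) that was not called.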

How the data were processed

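Poly(A) RNA of whole seedlings was made into NEBNext libraries and read in pairs on an Illumina HiSeq, per the labels' protocols. HISAT2 2.2.1, RSEM 1.2.22 and the TAIR10 build are named in the submitters' processing notes, with no roles or parameters. Per the file headers, the authors' 1 table gives expected counts (as read counts), FPKM and TPM for each gene in each library. Of 29431 lines, 11981 named a gene, and 17450 named none and were left out; 544 lines repeating an identifier held equal values, which left 11437 genes. The deposited TPM values of these summed to between 48.4% and 49.0% of their full scale per library and were not tested. FPKM was used only to order levels between genes. On 460 lines locus name and identifier differed, and the identifier was used. Of the deposited counts 3.59% were not whole, in 6.99% of genes, and counts were rounded.

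Libraries were chosen by FSD1 as described. The members, gene lists, rule and tests were chosen with earlier results of these data known. Genes that follow FSD1 share the choice of libraries. Counts were tested with edgeR 4.0.16 in R 4.3.3 (filterByExpr, which genes high in 1 group can pass through that group alone, TMM factors of 0.951 to 1.04, quasi-likelihood, 1 term for time, 6 residual degrees of freedom, Benjamini-Hochberg). The medium was no term. Standard errors were derived from the F statistic. CPM used the TMM factors of the 8 libraries, and for the 10 other libraries those of all 18. Intervals and the floor of 3 counts per library (a mean of 0.917 CPM over the untreated and 0.944 CPM over the 5 ZT 2 libraries, with TMM) cover counting error only: PCR copies of a molecule are not independent.

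Genes were named by a rule: the 6 that rose most and the 6 that fell most, if called, with a mean log2 CPM of 3 or more and groups that stayed apart, and in each list the 2 called members with the largest change. Other list members, and per-library values for some of them, were added after their values were seen. In data simulated for this comparison with 200 changed genes, 14.5% of 1.5-fold changes were called among 8609 genes tested, 69.5% of 2-fold changes among 8622 and 95.5% of 4-fold changes among 8612. Far fewer genes changed there than the 3713 called here, so the Benjamini-Hochberg limit was stricter in the simulation. These shares are therefore not the recovery in these data. Counting by strand is not stated in the sources used here, and 30.6% of the listed genes overlap another annotated gene. Among the genes in the text these are SAG21, AT3G61160, MYC2, LNK1, RVE1, F3H, PORB, GUN4, PHS2, WRKY40, GLDP1, GAPA1, LNK2, LNK3, LUX, FKF1, LKP2, PIF1, COL1, BBX24, BBX25, CHS, LHCA4, LHCB1.5, CHLI2, DIN3, DIN4, BCAT2, BGAL4, STP1, KFB50, BAM2, BAM3, PGLCT, SS2, CSD1, YSL2, PAA2, MBF1C, COR15B, TCH2, TCH3, EXPA7, EXPA18 and AT1G55673, so part of their reads may belong to a neighbour. Counts were partly not whole for MYC2, LNK1, LHCB1.4, GUN4, LUX, LHCB1.5, LHCB2.1, BGAL4, STP1, COR15B, PHT1;1, AT1G55673, AT2G05230 and AT1G24881. Promoters came from the RefSeq TAIR10.1 genome and annotation, which hold all 8724 tested genes; 1 promoter is not reported here. Alternatives were DESeq2 1.42.0, no TMM, 2 other filters, a fold minimum, a stricter adjusted p, the replicate number as a block, a fit of all 18 libraries, the other ZT 2 libraries and leaving out each library.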

Additional observations from a re-analysis of the deposited data

Results flagged for a closer look

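In 48 sets of 5 values from the ZT 2 libraries with high FSD1, 5 held a value set apart from the other 4 by more than Dixon's 95% limit for 5 samples. The sets come from the same 5 libraries and include genes picked for a wide range, IRT1 among them. No rate expected by chance can therefore be set beside this number. TYR replicate 3 was highest for SAG21 with 189.7 CPM, against 118 to 124 CPM in the other 4, and for IRT1 with 33.8 CPM, against 0 to 5.24 CPM. DPI replicate 1 was lowest for GRP7 with 17.1 CPM, against 52.4 to 66.0 CPM. DPI replicate 1 was highest for PIF4 with 208 CPM, against 149 to 165 CPM, and for WRKY40 with 46.2 CPM, against 9.49 to 19.9 CPM. All these values come from 1 library of their medium, so library and medium cannot be told apart.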

How the results depend on the processing

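Of 998 values recomputed under alternatives, 970 had the same call and direction, or a count not more than 1.5 times away, and none reversed. The 673 values of 38 named genes kept their direction, and 7 lost their call, all under the minimum absolute log2 fold change of 1, which GUN4, PHS2, PGM1, SS4, NRT1.1, GLDP1 and GAPA1 did not reach. Without TMM 1 of 92 called list members lost its call and none changed sign.

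With the minimum absolute log2 fold change of 1, 1427 genes were called, 858 higher and 569 lower, and the lists kept 2 called members for clock output, 9 for light signalling, 3 for light harvesting, 1 for chlorophyll synthesis, 1 for starch breakdown, 0 for starch synthesis (edgeR; 4 at the adjusted p alone) and 1 for nitrate assimilation. With the replicate block 2356 genes were called, 1228 higher and 1128 lower, with 2 members for chlorophyll synthesis and 4 for starch breakdown. The number in the titles was not taken to pair the libraries. Deviations from group means of 5 same-numbered pairs correlated at -0.0651 to 0.0874, and 2 of 5 ZT 2 libraries correlated best with their own number. Of the 5 ZT 2 libraries 4 are numbered 1, so most of a shared effect of that number was subtracted with the ZT 2 mean. These correlations therefore cannot show whether the number marks a batch. At an adjusted p under 0.01, 2 members of chlorophyll synthesis were called. Requiring at least 10 counts in every library leaves out the called list members COR27, JMJD5, PIF4, PIL1, MYB12, VSP1, VSP2, TAT3, MYC2, HSFA2 and HSP90.1. Outside the lists it leaves out FAMT, RNS1, JAL23 and AT3G61160. Then 3 clock output, 3 evening clock, 13 light signalling, 4 flavonoid, 5 jasmonate and 2 heat response members were called.

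Leaving out 1 library gave 2857 to 3930 called genes, 1472 to 1993 higher and 1385 to 1937 lower, 2 to 4 members for clock output (2 without untreated replicate 1) and 2 to 5 for chlorophyll synthesis (2 without untreated replicate 2 or 3). Without untreated replicate 3 the fitted log2 fold change went from 7.67 to 12.67 for MYC2, from 9.65 to 11.49 for TAT3, from 9.21 to 10.03 for FAMT and from 8.25 to 10.09 for RNS1, which was 7.66 without AEG replicate 1, and without untreated replicate 2 it went from 5.54 to 7.39 for PIL1. A threshold of 100 FSD1 counts chose the same number of ZT 2 libraries, 5. The causes of these shifts were not tested beyond the fewer genes or samples that some alternatives hold. Depth limits genes at or under 3 reads at ZT 0, such as HSFA2 and TAT3, to bounds or wide ratios.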

Other observations

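LOX2 also varied widely among the 10 ZT 2 libraries with low FSD1, which enter no test here. It was at 7414 and 2376 CPM in the other two DMSO libraries, against 1059 CPM in DMSO replicate 1. With DPI the other two libraries had 5356 and 3245 CPM, with PI 2843 and 3560.4, with AEG 6684 and 2340.4, and with TYR 2211 and 1081 CPM. The 15 values overlapped between high and low FSD1, and each was above the 3 untreated ones.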
